A study of Mus musculus with 4 samples.

Results

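The genes of cholesterol synthesis, uptake, storage and efflux were followed through 4 days of gonad development in the mouse. The 30 listed symbols were looked up by exact match in the deposited gene tables, and 29 of them had a row among the 40999 features. The remaining one, Msmo1, was in the tables under its older symbol Sc4mol, which RefSeq gives as a synonym. Its values are given beside the others and it is not counted among the 29. All 29 genes had counts in every library and passed the filter on low counts in every comparison.

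The study profiled total RNA of gonads from wild-type C57BL/6J embryos collected daily from E11.5 to E14.5, and made 1 library for each day. A pool held XX and XY gonads together, at least 6 of each sex from 2 litters, so no value can be assigned to a sex. The E11.5 pool was whole genital ridge with the mesonephros, whereas from E12.5 the gonad was separated from it, so the day and the dissection cannot be told apart in the first comparison. Because a pool was sequenced once, each p-value and interval compares 2 libraries and not 2 ages, and intervals cover counting error only. In such bulk samples, fewer cells of a type and less RNA per cell cannot be told apart.

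Cells make cholesterol from acetyl-CoA through mevalonate, squalene and lanosterol, and then remodel the sterol ring in a series of steps that ends in cholesterol. When sterol in the endoplasmic reticulum is low, SCAP carries the SREBP transcription factors to the Golgi, where they are cut and released to switch on the enzymes of the pathway, while INSIG proteins hold SCAP back when sterol is plentiful. Cells also take up cholesterol from lipoproteins, free it in lysosomes, store it as ester and pump it out. In the fetal testis, Leydig cells use cholesterol as the substrate for steroid hormones.

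The totals ranged from 25593453 counts at E12.5 to 31752562 at E13.5. The libraries differed in how much of the total was 18S ribosomal RNA, assigned to Rn18s-rs5, which took 9.06% of the E11.5 library, 1.31% of E12.5, 1.03% of E13.5 and 40.7% of E14.5. Levels below are CPM, counts scaled to library size, after TMM scaling over the 4 libraries, a scaling that sets the bulk of genes level between libraries. The 8 housekeeping genes on this scale had median log2 fold changes of -0.07, -0.05 and -0.01 at E12.5, E13.5 and E14.5, each against the day before. A gene was called a differentially expressed gene (DEG) at a log2 fold change of at least 1 in size with an FDR of at most 0.05 in the exact test of edgeR, run with a dispersion set by hand.

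Upstream sequences were available for 23 of the 30 listed genes, Msmo1 included, in RefSeq on GRCm38.p6, as the 250 bases before the annotated start. For each gene the window nearest its deposited gene model was used. The windows of Pmvk and Insig2 lie wholly within that model. The letters CCAAT on either strand, the core bound by NF-Y, were in 18 of the 23 windows (78.3%), that of Insig2 included with 3 matches. They were in 33.8% of all 32817 distinct windows of that length with a RefSeq entry, which were not limited to 1 per gene. GGGCGG on either strand, the core bound by Sp1, was in 73.9% of the 23 windows and in 32.7% of all windows. The SREBP-type letters TCACNCCAC on either strand were in 1 window, that of Hmgcs1, against 346 of all 32817 windows. Only exact matches were counted, and no window was available for Fdps, Fdft1, Sqle, Stard4, Scarb1, Npc1 and Abcg1. CACGTG, an E-box, was in 3 windows, those of Hsd17b7, Insig1 and Abca1, against 6.02% of all windows. CAAGGTCA on either strand, a site type of the steroidogenic factor NR5A1, was in that of Dhcr7, against 1.33% of all windows. The DR4 element bound by LXR, a pair of AGGTCA in one direction with NNNN between them, was in none, against 0.0152% of all windows.
The windows shown are those of the genes with an entry that were DEGs at E13.5 or at E14.5 against the day before, together with Hmgcs1 for its SREBP-type match. Each is printed 5′ to 3′ in the direction of the gene, with CCAAT (or its reverse, ATTGG) and TCACNCCAC in capitals, and stops where the deposited gene model begins, which leaves out 1 of the 3 CCAAT matches of Hsd17b7.
Hmgcs1, chr13:119690101-119690350, + strand: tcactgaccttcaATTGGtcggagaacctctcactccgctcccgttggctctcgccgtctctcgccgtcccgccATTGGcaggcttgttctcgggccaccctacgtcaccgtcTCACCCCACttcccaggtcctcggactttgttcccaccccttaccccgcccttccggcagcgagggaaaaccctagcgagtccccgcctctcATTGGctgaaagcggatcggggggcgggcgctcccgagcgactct
Lss, chr10:76531355-76531564, + strand: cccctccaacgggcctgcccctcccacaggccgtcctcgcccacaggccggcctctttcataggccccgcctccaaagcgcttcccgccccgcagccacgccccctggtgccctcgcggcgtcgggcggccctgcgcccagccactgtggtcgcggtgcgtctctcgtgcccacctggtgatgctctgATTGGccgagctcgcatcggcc
Tm7sf2, chr19:6067851-6068100, - strand: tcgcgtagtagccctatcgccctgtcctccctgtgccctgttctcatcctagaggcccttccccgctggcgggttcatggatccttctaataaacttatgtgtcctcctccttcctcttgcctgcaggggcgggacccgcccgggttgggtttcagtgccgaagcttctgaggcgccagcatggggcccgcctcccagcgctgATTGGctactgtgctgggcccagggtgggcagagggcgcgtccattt
Hsd17b7, chr1:169969237-169969455, - strand: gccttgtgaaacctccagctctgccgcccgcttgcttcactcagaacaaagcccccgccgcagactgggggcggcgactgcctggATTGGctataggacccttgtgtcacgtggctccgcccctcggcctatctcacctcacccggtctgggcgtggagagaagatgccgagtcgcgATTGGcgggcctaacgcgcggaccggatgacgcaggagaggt
Srebf2, chr15:82147019-82147185, + strand: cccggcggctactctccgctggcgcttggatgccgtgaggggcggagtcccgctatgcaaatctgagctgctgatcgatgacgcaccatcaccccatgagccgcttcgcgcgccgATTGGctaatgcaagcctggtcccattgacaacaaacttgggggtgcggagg
CCAAT was in 11 of the 14 windows of synthesis enzymes and in 7 of the 9 windows of the other genes, and 14 of the 23 windows held both CCAAT and GGGCGG. A match of letters is a description of these windows and was not tested as a site.

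Between E11.5 and E12.5 the 16 synthesis enzymes with a row had 8 positive and 8 negative log2 fold changes, and at E13.5 against E12.5 all 16 were positive. Their summed level was 499 CPM at E11.5 and 490 CPM at E12.5, then 797 CPM at E13.5 and 912 CPM at E14.5. Both later libraries lay above both earlier ones. At E13.5 the enzymes' median log2 fold change was 0.69, against 0.00 for the 19152 genes tested, and 6.37% of all genes tested lay above the enzymes' median. Of the 29 genes, 4 were DEGs at E13.5, all higher, where 1.27% of all genes tested were DEGs in that direction. All 4 were synthesis enzymes. At a 1.5-fold limit with the same FDR, 7 of the 29 passed, all higher, against 1.93% of all genes tested. The calls rest on the preset spread. With the assumed biological coefficient of variation raised from 0.1 to 0.2, 0 of the 29 genes were called at E13.5. Few genes of any kind were called there, 54 of all 19152 tested. At 0.4 none of the 29 was called in any comparison, and 1 of all genes tested was called at E13.5.

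**Figure D1:**
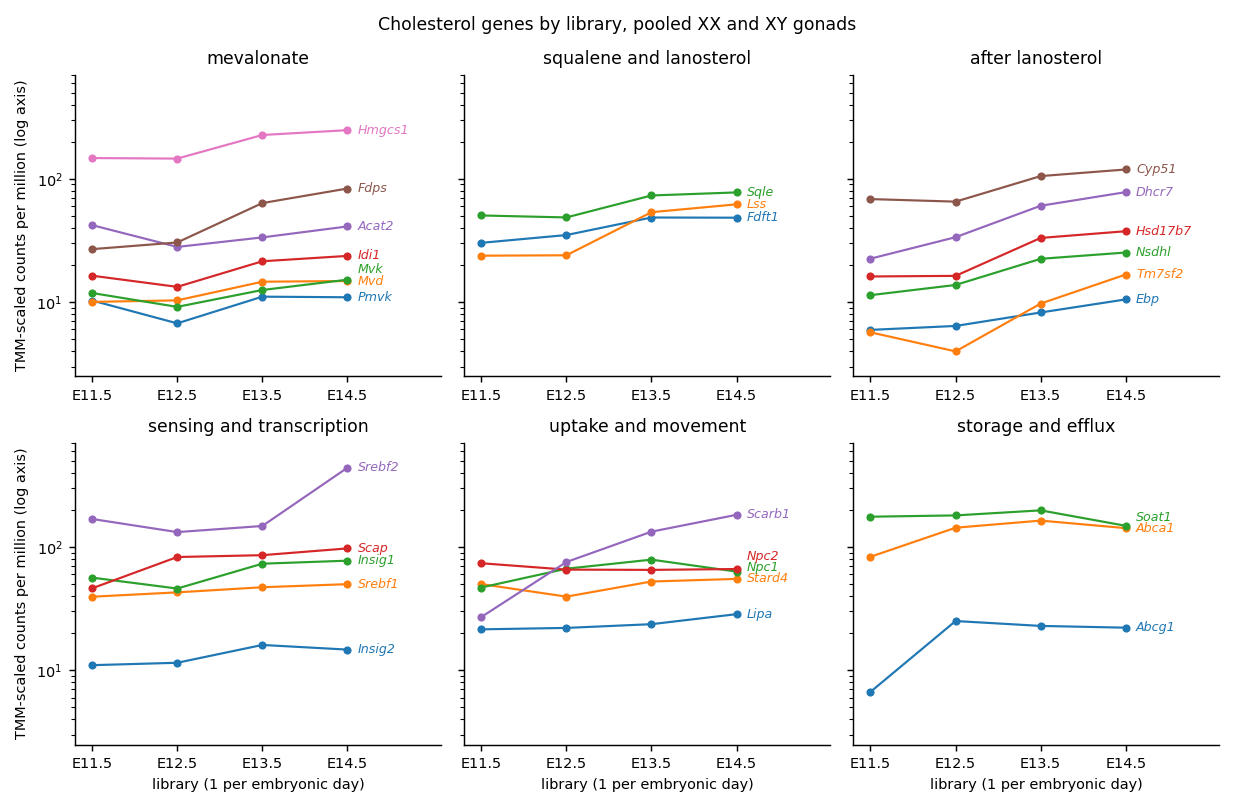
Level of each of the 29 genes in each library, as TMM-scaled CPM on a log axis, in panels by role; lines join the 4 libraries and each point is 1 library. The enzymes of the upper panels all lie higher at E13.5 than at E12.5, Srebf2 stands apart at E14.5 with 439 CPM, and Abcg1 goes from 6.68 CPM at E11.5 to 25.1 CPM at E12.5.

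The mevalonate steps build the isoprenoid units. Hmgcs1, which makes HMG-CoA, was at 147, 146, 226 and 248 CPM in order of age. It was the most abundant of the 29 per kilobase of exon in the first 3 libraries, at 41.9, 41.5 and 64.5 TMM-scaled CPM per kb. Its log2 fold change at E13.5 was 0.63 (95% interval 0.58 to 0.69) with an FDR of 0.0689, short of the limits.

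Fdps, the synthase of farnesyl diphosphate (chr3:89093588-89101967, - strand, mm10), had 921, 955, 2513 and 1569 counts in the 4 libraries in order of age. Its level was 26.9, 30.4, 63.5 and 83.3 CPM. The 2 early libraries were close together and the 2 later ones were more than double them. It rose 2.08-fold at E13.5, a log2 fold change of 1.06 (0.95 to 1.17) with an FDR of 0.000113. Among the other mevalonate genes, Idi1, the isomerase, had a log2 fold change of 0.69 at E13.5 and Pmvk, a kinase, of 0.72, with FDRs of 0.0658 and 0.079. Mvk, the first kinase, Mvd, the decarboxylase, and Acat2, which condenses acetyl-CoA, had log2 fold changes of 0.45, 0.50 and 0.25. Acat2 and Pmvk had negative values at E12.5, with log2 fold changes of -0.59 and -0.61 and FDRs of 0.0321 and 0.0521. Acat2 was thus at 42.1 CPM at E11.5 and 41.1 CPM at E14.5, with lower levels between.

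Squalene is made by Fdft1, oxidised by Sqle and closed into lanosterol by Lss. Lss (chr10:76531565-76557139, + strand, mm10) had 815, 752, 2120 and 1168 counts, or 23.8, 24.0, 53.6 and 62.0 CPM. The first 2 libraries were alike and the last 2 stood well above. It rose 2.23-fold at E13.5, with a log2 fold change of 1.16 (1.04 to 1.28) and an FDR of 1.87e-05. Sqle and Fdft1 had log2 fold changes of 0.59 and 0.47 in the same comparison, with FDRs of 0.124 and 0.358. Fdft1 shares 774 of its 3923 exon bases with Ctsb on the opposite strand. Tm7sf2 shares 9 of its 1479 exon bases with Vps51 on the same strand, and Srebf1 and Npc1 share 107 and 192 bases with genes on the opposite strand. The library kit marks strand, but the strand setting of the counting was not given in the sources used here.

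After lanosterol, the largest change in level between libraries was that of Tm7sf2, a sterol reductase (chr19:6062821-6067850, - strand, mm10). It had 195, 125, 385 and 315 counts, or 5.69, 3.98, 9.73 and 16.7 CPM. E12.5 was the lowest library and E14.5 the highest. It rose at E13.5 with a log2 fold change of 1.28 (0.99 to 1.59) and an FDR of 6.62e-05. From E13.5 to E14.5 its log2 fold change was 0.80 (0.58 to 1.02) with an FDR of 0.0138, under the fold limit, and over both days it rose 4.23-fold. With 125 counts at E12.5 it was also the gene of the 29 with the fewest counts in any library.

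Hsd17b7, the ketoreductase of the C4 demethylation steps (chr1:169949537-169969236, - strand, mm10), had 16.1, 16.3, 33.1 and 37.6 CPM. Early and late libraries again formed 2 levels. It rose at E13.5 with a log2 fold change of 1.02 (0.87 to 1.17) and an FDR of 0.000454, just past the fold limit. Dhcr7, which makes cholesterol from 7-dehydrocholesterol, was at 22.5, 33.6, 60.4 and 77.9 CPM, higher in each library than in the one before. Its log2 fold change was 0.58 at E12.5 and 0.84 at E13.5, with FDRs of 0.0375 and 0.00516, and neither reached 2-fold. Cyp51, the lanosterol demethylase, and Nsdhl, a decarboxylating dehydrogenase, had log2 fold changes of 0.69 and 0.70 at E13.5, with FDRs of 0.0403 and 0.0556. Ebp, the sterol isomerase, had one of 0.36. Msmo1, the methyl oxidase that acts beside Nsdhl and Hsd17b7, was at 27.8, 29.6, 57.7 and 63.4 CPM through its Sc4mol row. Its log2 fold change at E13.5 was 0.96 (0.85 to 1.07) with an FDR of 0.000776.

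**Figure D2:**
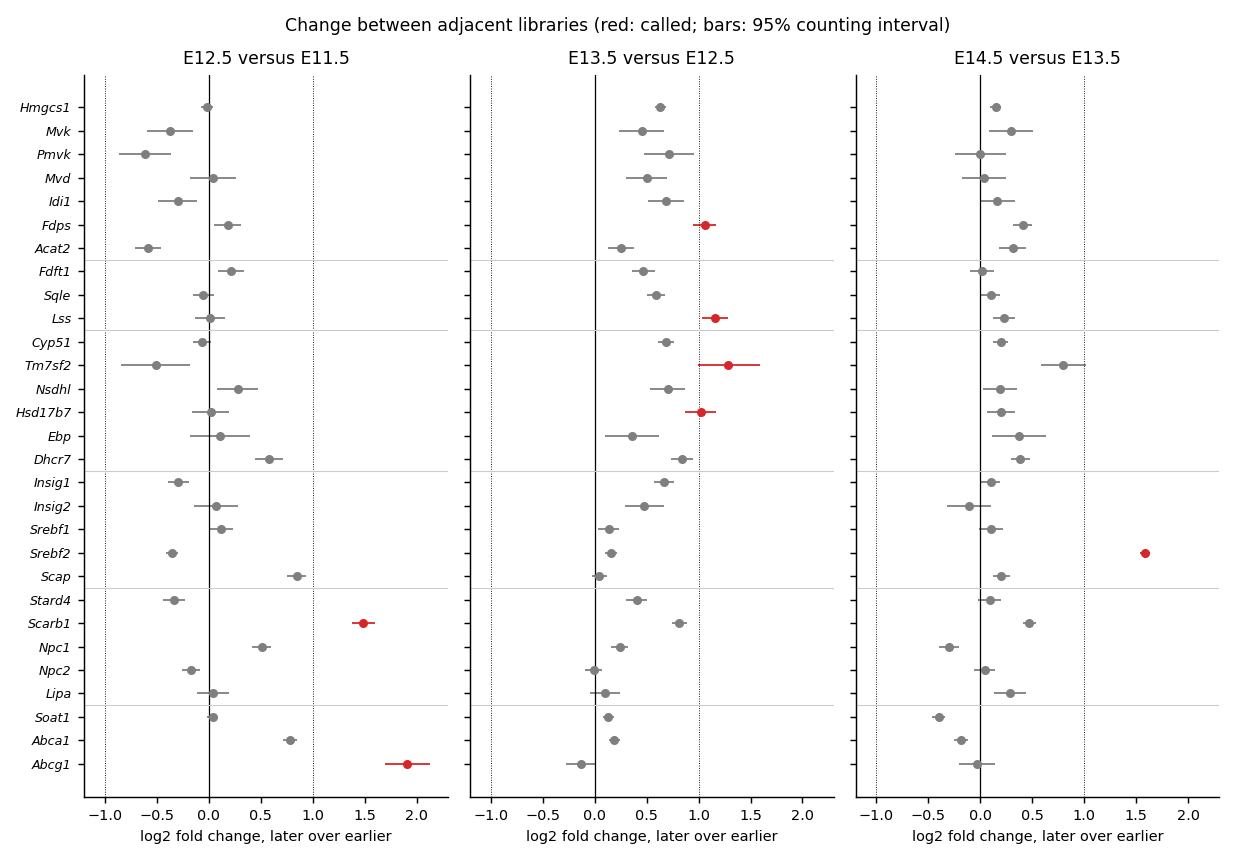
Log2 fold change of each of the 29 genes (rows, ordered by role, separated by grey lines) between adjacent libraries; bars are exact 95% intervals for counting error, dotted lines mark 2-fold and red points are DEGs. All 16 enzymes lie right of 0 at E13.5, led by Tm7sf2 at 1.28, and at E14.5 Srebf2 is the only red point, at 1.59.

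From E13.5 to E14.5 the enzymes moved little on the TMM scale. All 16 log2 fold changes were positive, from 0.00 for Pmvk to 0.80 for Tm7sf2, with a median of 0.20 against 0.01 for all 18992 genes tested, and no enzyme was a DEG. In edgeR's exact test, 1 of the 16 had an unadjusted p under 0.05, and the share of all genes under that limit was not computed. A log2 fold change of at least 0.5 was reached by 1 of the 16, against 13.4% of all genes tested. Scaled by total counts instead, the median of all genes went from 0.01 to -1.07 and that of the 29 genes from 0.16 to -0.92, so positive values here hold relative to the other genes and not in absolute counts.

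Over the 2 days from E12.5 to E14.5, both dissected alike, 7 of the 29 genes were DEGs and all were higher, against 6.45% of the 18704 genes tested. They were Tm7sf2 (log2 fold change 2.08), Srebf2 (1.75), Fdps (1.46), Lss (1.38), Scarb1 (1.28), Dhcr7 (1.23) and Hsd17b7 (1.21), and Sc4mol was called as well (1.11). The 16 enzymes had a median of 0.81, from 0.48 for Fdft1 to 2.08 for Tm7sf2, and 10.99% of all genes lay above that median. At the 1.5-fold limit 13 of the 16 enzymes and 16 of the 29 genes passed, all higher, against 8.57% of all genes tested. Among the 11430 genes with a mean of at least 200 counts the 2-fold share was 3.18% and the 1.5-fold share 5.79%. These 2-day values share the E12.5 and E14.5 libraries with the daily ones and are not a second measurement. Scaled by total counts, 6 of the 29 were called over the 2 days, 1 higher and 5 lower, while 54.7% of all genes tested were called, 379 higher and 9854 lower.

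**Figure D3:**
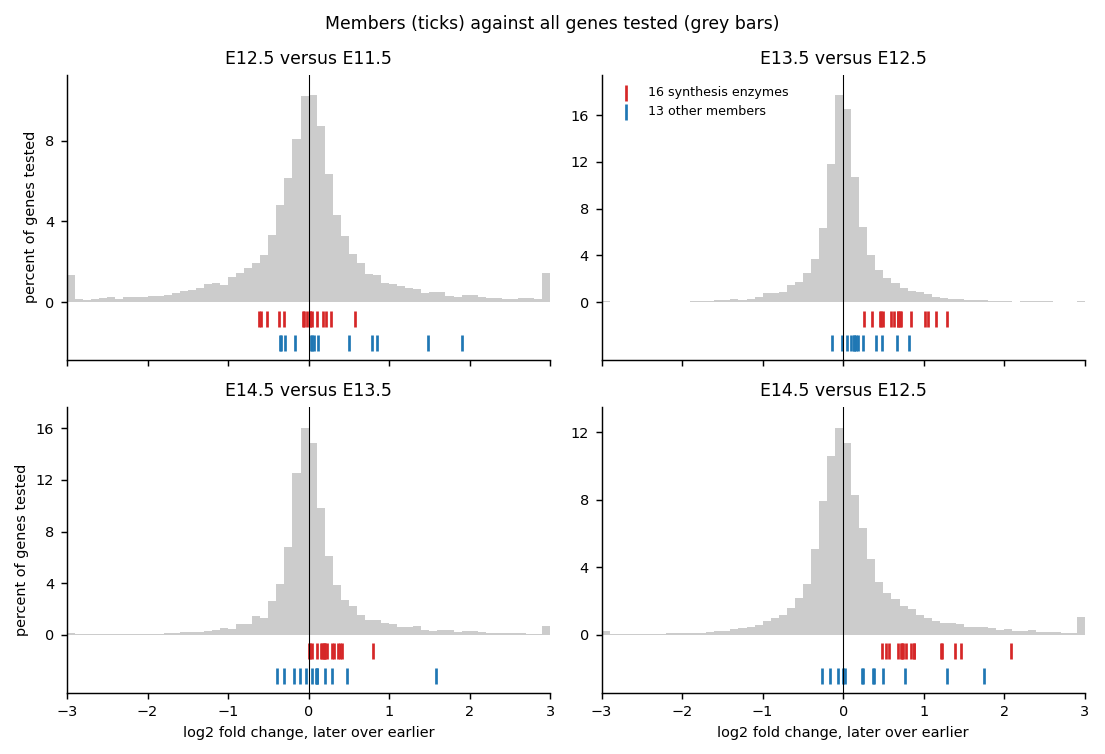
Distribution of log2 fold changes of all genes tested (grey bars, percent of genes per 0.1 log2 units, with genes beyond 3 in the end bars) and the values of the 16 enzymes (red ticks) and 13 other genes (blue ticks) in 4 comparisons. The red ticks spread on both sides of 0 at E12.5 and lie from 0.25 to 1.28 at E13.5.

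The 13 genes outside the synthesis enzymes had median log2 fold changes of 0.07, 0.16 and 0.09 for the 3 daily steps. The difference between them and the enzymes was not tested. In the first comparison 2 of the 29 genes were DEGs, both higher and both from this group, where 7.16% of the 19215 genes tested were DEGs in that direction, a share close to that of the 29.

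Abcg1, which passes cholesterol to high-density lipoprotein (chr17:31057694-31117984, + strand, mm10), had 229, 787, 906 and 417 counts, or 6.68, 25.1, 22.9 and 22.2 CPM. E11.5 alone was low and the later 3 libraries were close together. It rose 3.75-fold at E12.5, a log2 fold change of 1.91 (1.69 to 2.13) with an FDR of 1.61e-14. Abca1, which loads cholesterol onto apolipoprotein A-I, followed the same course at 83.2, 143, 164 and 142 CPM, with a log2 fold change of 0.78 (0.72 to 0.85) and an FDR of 0.00138 at E12.5, under the fold limit. Neither efflux gene had a log2 fold change above 0.19 in size on the later days. Markers of macrophages, cells that express both transporters, were lower at E12.5 in 5 of 5 cases, all DEGs. Of all genes tested, 7.15% were DEGs with a lower level in that comparison. The summed level of the macrophage markers went from 44.7 CPM at E11.5, with the mesonephros, to 17.2 at E12.5. The part of macrophages in the levels of both transporters was not tested.

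Scarb1, the scavenger receptor that takes up cholesteryl ester from high-density lipoprotein (chr5:125277087-125341111, - strand, mm10), had 926, 2368, 5265 and 3432 counts. Its level was 27.0, 75.5, 133 and 182 CPM, higher in each library than in the one before. It rose 2.79-fold at E12.5, with a log2 fold change of 1.48 (1.37 to 1.59) and an FDR of 1.64e-10. The log2 fold change was 0.82 at E13.5, with an FDR of 0.00644, and 0.47 at E14.5, with an FDR of 0.227. From the lowest to the highest library its level differed 6.75-fold, the widest range of the 29 genes.

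The other genes of uptake and movement stayed within narrower limits. Npc1 and Npc2 move cholesterol out of lysosomes, Lipa hydrolyses its esters there and Stard4 carries it between membranes. Npc1 had log2 fold changes of 0.51, 0.24 and -0.30 on the 3 days, and that at E12.5 had an FDR of 0.0705. Npc2 ranged only from 65.2 to 73.8 CPM. Stard4 had its lowest level, 39.6 CPM, at E12.5 and 55.1 CPM at E14.5. Lipa ranged from 21.5 to 28.5 CPM. Soat1, which esterifies cholesterol for storage, was at 176, 180, 198 and 148 CPM, with its lowest level at E14.5 (log2 fold change -0.40, FDR 0.417).

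Among the genes of sterol sensing, Scap, the escort of the SREBPs, was at 46.2 CPM in the E11.5 library and at 82.9, 85.8 and 97.3 CPM in the later 3. Its log2 fold change at E12.5 was 0.84 (0.75 to 0.93) with an FDR of 0.000562, under the fold limit, and 0.05 and 0.20 on the next 2 days. Insig1, itself a target of SREBP, had the course of the enzymes, at 56.4, 46.0, 73.2 and 77.4 CPM, with a log2 fold change of 0.67 (0.58 to 0.76) and an FDR of 0.0529 at E13.5. Insig2 had a log2 fold change of 0.48 in that comparison. Srebf1, which mainly drives fatty acid synthesis, ranged only from 39.5 to 49.9 CPM.

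Srebf2, the main regulator of the cholesterol enzymes (chr15:82147186-82205379, + strand, mm10), did not share their course. It had 5778, 4140, 5853 and 8263 counts in order of age, or 169, 132, 148 and 439 CPM. The first 3 libraries were close and E14.5 stood far above. The log2 fold change at E13.5, where all enzymes had positive values, was 0.16 (0.10 to 0.22). It rose at E14.5 with a log2 fold change of 1.59 (1.54 to 1.64) and an FDR of 4.88e-12, and was the 1 DEG of the 29 in that comparison, where 4.28% of all genes tested were DEGs with a higher level.

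In the raw counts, from which the values above come, Srebf2 was alone among the 29 in rising at E14.5. From E13.5 to E14.5 all the other 28 genes had fewer counts, 69537 in sum at E13.5 and 34996 at E14.5. Those of Srebf2 went from 5853 to 8263. Fewer counts were common at E14.5. Scaled by total counts, the median log2 fold change of all genes was -1.07. Of 18992 genes tested, 11124 were called lower and 261 higher under that scaling. On the deposited TPM scale Srebf2 was at 46.2, 44.1, 54.1 and 52.2 TPM, and its log2 ratio at E14.5 was -0.05. The median log2 ratio of the 29 genes on that scale was -1.47. Of the TPM total, 18S ribosomal RNA made up 0.917% at E13.5 and 24.7% at E14.5. All other features are also in that total, and their part in the TPM ratios was not tested. Per kilobase of exon it ranked first of the 29 at E14.5, at 78.0 TMM-scaled CPM per kb, ahead of Hmgcs1 at 70.6, while at E11.5 and E12.5 both Hmgcs1 and Soat1 ranked above it. The E14.5 library is the one with 40.7% of its counts in 18S ribosomal RNA, and the part of this in the level of Srebf2 was not tested.

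**Figure D4:**
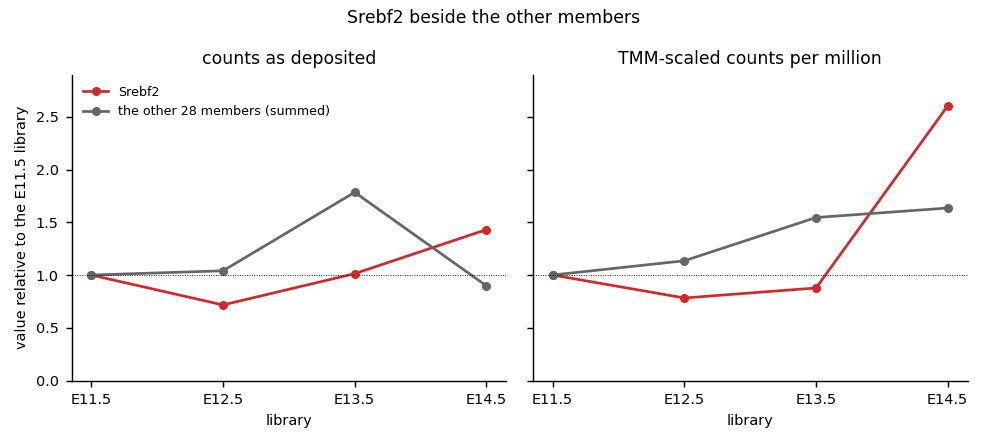
Srebf2 (red) and the sum of the other 28 genes (grey) in each library relative to E11.5, as deposited counts (left) and as TMM-scaled CPM (right). At E14.5 the counts of Srebf2 are 1.43 times those at E11.5 and those of the others 0.898 times, and on the TMM scale the ratios are 2.60 and 1.64.

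Across the 4 libraries, 20 of the 29 genes had their highest level at E14.5, 6 genes at E13.5, 1 gene at E12.5 and 2 genes at E11.5. The lowest level fell at E11.5 for 16 genes, at E12.5 for 11 and at E13.5 and E14.5 for 1 each. With 1 library per day the order of neighbouring libraries has no replicate spread to be set against.

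The wider pathway was read from a second list of 42 genes, all with a row. At E12.5, 4 of them were DEGs with a higher level, and 4 with a lower one, where 14.3% of all genes tested were DEGs in either direction. Higher were Star, which brings cholesterol into mitochondria for steroid synthesis (log2 fold change 2.68), Gramd1b, a sterol carrier between membranes (2.04), the phospholipid transfer protein Pltp (1.06) and Acss2, which makes acetyl-CoA from acetate and lay at the 2-fold limit with an FDR of 0.000457. Among the lower ones were the lipoprotein receptors Vldlr (-1.91) and Lrp2 (-1.48) and the sterol hydroxylase Cyp27a1 (-1.52). Lrp2 is also a gene of renal tubules. The summed level of 5 nephric markers was 92.7 CPM at E11.5, with the mesonephros, and 21.7 at E12.5. Of the 5, 3 were DEGs with a lower level, where 7.15% of all genes tested were. Lhx1 went the other way, with a log2 fold change of 0.64. The part of the mesonephros in the level of Lrp2 was not tested.

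At E13.5, 2 of the 42 were DEGs, both higher, Star (2.77-fold) and the transporter Abcg4 (2.07-fold, from 86 to 225 counts), against 1.27% of all genes tested. Sc5d, a sterol desaturase, was not called and had a log2 fold change of 0.67 with an FDR of 0.082. From E13.5 to E14.5 edgeR's exact test called 0 of the 42, where it called 4.87% of all genes tested in either direction. At an unadjusted p under 0.05 were 5 of the 42, 4 higher and 1 lower, and the share of all genes under that limit was not computed. A log2 fold change of at least 0.5 was reached by 4 of the 42, against 13.4% of all genes tested. Over the 2 days from E12.5, 4 of the 41 genes tested were DEGs, where 6.45% of all genes tested were DEGs with a higher level. They were Star (2.05), Abcg4 (1.47), Acss2 (1.09) and Cyp7b1, an oxysterol hydroxylase (1.07), all higher.

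Markers of several gonadal cell types moved over the same days. The 5 fetal Leydig markers, which include Star, summed to 12.8, 164, 680 and 1121 CPM in order of age, and Insl3, a Leydig cell hormone, was at 0 counts at E11.5. All 5 were DEGs with higher levels at E12.5 and again at E13.5, against 7.16% and 1.27% of all genes tested. Cyp17a1, the steroid hydroxylase and lyase, had log2 fold changes of 8.26 and 2.53 in those comparisons, the first from 5 counts at E11.5. Sertoli markers summed to 84.5, 544, 477 and 532 CPM and germ cell markers to 11.6, 274, 363 and 312 CPM. The Leydig, Sertoli and germ cell lists all had their largest daily median log2 fold change at E12.5, at 5.87, 6.62 and 4.28. In that comparison day and dissection cannot be told apart. The 5 pregranulosa markers summed to 121, 173, 227 and 194 CPM. The part of these cell types in the levels of the cholesterol genes was not tested.

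Other lists took other courses. Endothelial markers summed to 339, 338, 259 and 240 CPM and erythroid markers to 1397, 1613, 649 and 197 CPM. The 5 hepatocyte markers never summed to more than 4.09 CPM, and 1 of them was at 0 at E14.5. The 3 adrenal-type steroid genes went from 2.58 CPM at E12.5 to 14.3 at E14.5, with Cyp11b1 at 1 count at E12.5 and 147 counts at E14.5.

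**Figure D5:**
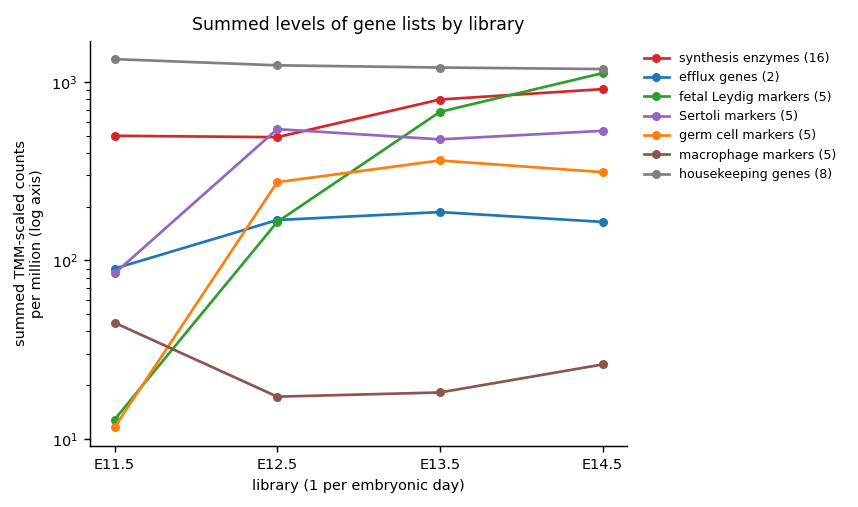
Summed TMM-scaled CPM of gene lists in each library on a log axis, with the number of genes in brackets. The synthesis enzymes are at 499, 490 and 797 CPM at E11.5, E12.5 and E13.5. Over the same libraries fetal Leydig markers are at 12.8, 164 and 680 CPM and Sertoli markers at 84.5, 544 and 477 CPM.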

How the data were processed

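RNA was pooled from XX and XY gonads at each time point, ribosomal RNA was depleted, and 1 stranded library with unique molecular identifiers was made per pool. The authors aligned reads to mm10 with STAR, used UMI-tools to remove duplicates and featureCounts to assign reads to genes, and the deposited counts were used here. TPM and RPKM were computed by the authors from these counts and exon lengths; the deposited TPM served as an alternative and RPKM was not used. Versions, annotation release and multi-mapping rules were not given in the sources used here.

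Analyses used edgeR 4.0.16 in R 4.3.3, DESeq2 1.42.0 for size factors only, and pandas 2.3.3. In each of 4 comparisons the genes kept by filterByExpr were TMM scaled, and the exact test of edgeR was run with the dispersion set to 0.01 (biological coefficient of variation of 0.1), with Benjamini-Hochberg FDR over all genes tested, since 1 library per time point leaves no dispersion to estimate. DEGs had at least 2-fold change and an FDR of at most 0.05. Fold changes used a prior count of 0.125 and exact Clopper-Pearson 95% intervals. TMM factors were set per pair for fold changes and over 4 libraries for levels, so ratios of levels differ slightly from fold changes. A count of 3 corresponded to at most 0.117 CPM.

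The 30 genes and all lists were chosen with earlier results of these data known. All 30 were described, with the genes of the second list that were called, except that some results of that list are not reported here; Sc5d was added after its values were seen. Alternatives were other dispersions, scalings, filters, prior counts and fold limits.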

Additional observations from a re-analysis of the deposited data

How the results depend on the processing

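No paired analysis was possible because each time point has 1 library, and for the same reason no replicate could be left out. Every alternative was run; counting Msmo1 through Sc4mol, and the share called among genes with a mean of at least 200 counts, were added after seeing the data. The calls depend on the preset dispersion. At a biological coefficient of variation of 0.4, 0 of the 29 genes and 0 of the 42 others were called in every comparison. Among all genes tested, 286 were called at 0.4 at E12.5, 1 at E13.5, 31 at E14.5 and 72 over the 2 days. At 0.2, 0 of each list were called at E13.5, where 54 of all 19152 genes tested were called. Over the 2 days to E14.5, 5 of the 29 and 2 of the 42 were called at 0.2, where 817 of all 18704 were. With a 1.5-fold limit the calls among the 29 were 5, 7, 2 and 16 (E12.5, E13.5, E14.5 and the 2 days from E12.5). Among the 42 they were 14, 4, 1 and 9. Of all genes tested, 20.7%, 2.83%, 6.24% and 11.2% were called at that limit in either direction. Scaling by total counts called 9 of the 29 and 22 of the 42 at E14.5, all lower, where 59.9% of all genes tested were called, and over the 2 days 6 and 17, of which 1 and 1 were higher, where 54.7% of all genes were called. Medians of the 29 under total counts were 0.20 at E12.5, -0.92 at E14.5 and -0.34 over the 2 days, while the median of all genes was at 0.16, -1.07 and -1.04. As ratios of TPM the medians were 0.32, 0.61, -1.47 and -0.79. TPM ratios reversed 6 called values, Srebf2 at E14.5 (-0.0496) and, over the 2 days, Fdps (-0.0360), Lss (-0.12), Hsd17b7 (-0.29), Dhcr7 (-0.28) and Scarb1 (-0.22). 18S ribosomal RNA made up 40.7% of the counts and 24.7% of the TPM at E14.5, against 0.917% of the TPM at E13.5. The part of other features in the TPM ratios was not tested. DESeq2 size factors, TMM over long features or over 4 libraries and a prior count of 2 left all 116 fold changes of the 29 genes within their counting intervals.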
